A study of Mus musculus with 33 samples.

Results

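The Max network is a set of DNA-binding proteins built around Max, and 8 of its genes are described here across a study of the small molecule RepSox in mouse cells. The members are Mycl and Mycn, relatives of Myc that pair with Max, then Max itself, and the antagonists Mnt, Mxd1, Mxd3, Mxd4 and Mxi1, which pair with Max in place of Myc. They were chosen by name in the arrays' probe annotation, and Myc was left out of the set. All 8 were among the 16593 named genes of the platform that holds 10 of the 11 sample groups. Of the 8, 5 (Mycl, Mycn, Mxd1, Mxd3 and Mxi1) were among the 15967 named genes of the platform used for the other group. On the first platform 6 members passed the filter for detected probes and were tested, while Mycn and Mxd1 did not pass it.

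Myc-family proteins carry a basic helix-loop-helix leucine zipper and bind DNA only as a pair with Max, mostly at the hexamer CACGTG, called the E-box, where the pair recruits coactivators. The Mxd proteins, Mxi1 and Mnt form pairs with Max that occupy the same hexamer and recruit the Sin3 corepressor with histone deacetylases. In reprogramming of fibroblasts to induced pluripotent stem (iPS) cells, Myc is one of the classical factors, and Mycl and Mycn are known to be able to take its place.

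RepSox inhibits the type I receptor of transforming growth factor beta. The labels put 33 Illumina bead arrays of total RNA in 11 groups of 3. The treated groups were mouse embryonic fibroblasts after 1 week of RepSox, and OKMS6 cells after 10, 24 and 48 h of RepSox. OKMS6 is a single partially reprogrammed cell line that arose from virally transduced embryonic fibroblasts. The labels name viral Sox2 for it and give no list of its other transgenes. Untreated OKMS6 cells were collected at the same 3 times, and untreated fibroblasts served as the control of the fibroblast treatment. R1 and V6.5 are embryonic stem cell lines. The last group was a mouse iPS line derived with RepSox in place of viral Sox2. It ran on the second platform, where array design and cell type cannot be told apart, so its levels are given with no test. Cultures grew on gelatin, some of them over irradiated fibroblast feeders, and the labels do not say which. They also do not say that the 3 arrays of a group came from separate cultures, so every p-value reflects how far these arrays scatter, and that scatter may be purely technical.

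The promoters of 4 members are shown because the network's own recognition hexamer lies in 3 of them, while the fourth, that of Mycl, belongs to the member with the largest response to RepSox in fibroblasts and lacks it. The stretches run 5′ to 3′ on the gene's strand from 250 bases before the start site to 10 bases after it, in RefSeq's sequence of GRCm38.p6, and capitals mark CACGTG. The Mycl stretch is chr4:122995681-122995940 on the plus strand, that of Max is chr12:76962239-76962498 on the minus strand, that of Mxd4 is chr5:34187701-34187960 on the minus strand, and that of Mnt is chr11:74830674-74830933 on the plus strand.
Mycl: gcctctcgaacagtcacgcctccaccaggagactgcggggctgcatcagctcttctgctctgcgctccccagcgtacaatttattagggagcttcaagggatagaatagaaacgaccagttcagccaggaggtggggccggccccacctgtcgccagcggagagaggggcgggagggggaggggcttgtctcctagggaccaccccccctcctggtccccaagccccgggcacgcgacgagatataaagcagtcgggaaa
Max: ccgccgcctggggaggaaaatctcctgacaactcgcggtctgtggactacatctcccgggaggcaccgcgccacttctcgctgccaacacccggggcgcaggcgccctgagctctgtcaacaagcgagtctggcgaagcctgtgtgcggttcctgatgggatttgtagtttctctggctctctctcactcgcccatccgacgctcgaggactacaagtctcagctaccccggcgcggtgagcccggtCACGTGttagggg
Mxd4: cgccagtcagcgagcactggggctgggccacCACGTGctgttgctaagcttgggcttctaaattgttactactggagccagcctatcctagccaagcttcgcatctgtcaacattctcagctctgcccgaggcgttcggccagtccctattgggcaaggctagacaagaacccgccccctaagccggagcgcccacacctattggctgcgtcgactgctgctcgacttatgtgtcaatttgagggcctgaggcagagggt
Mnt: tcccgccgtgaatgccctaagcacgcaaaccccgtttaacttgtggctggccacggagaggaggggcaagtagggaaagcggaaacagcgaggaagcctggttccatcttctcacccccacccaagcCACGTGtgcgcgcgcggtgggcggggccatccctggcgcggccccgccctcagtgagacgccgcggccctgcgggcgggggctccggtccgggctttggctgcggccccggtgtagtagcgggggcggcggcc
The hexamer reads the same on both strands. Its first base lay at position -3 from the start site of Max, at -219 for Mxd4 and at -123 for Mnt. All 8 members matched the promoter table by symbol, in 10 windows of 300 bases, and 3 of these windows held CACGTG, against 7.15% of the 32851 promoters in that table. No match says only that these letters are not in the window, and nothing in the arrays measures binding there. The Mycl window lies inside the gene's listed span, chr4:122995588-123002490, so bases before that span were not searched.

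Values below are log2 intensities after background correction and quantile normalization, and the deposited signal is the scanner's background-subtracted brightness on a linear scale. A probe counted as detected at a detection p under 0.05, and a gene as called at an adjusted p under 0.05 in limma over 10614 genes. Arrays of a group correlated at 0.985 or above over all probes, except the V6.5 arrays (0.828 to 0.928), of which replicates 1 and 3 were dim. V6.5 values are given as levels only, and values without these 2 arrays stand beside a call where they change it. The scanner table and the deposited series matrix exchange the names of the arrays numbered 3 of treated and untreated OKMS6 cells at 48 h. Some results at 48 h are therefore also given without both. Single steps in time that end at 48 h were not recomputed without them. Mean signals were 100 to 113 on treated fibroblast arrays, 374 to 429 on R1 arrays, 194 to 327 on untreated OKMS6 arrays at 48 h and 94.9 to 102 on untreated fibroblast arrays. Brightness therefore moved with cell type, and its part in the differences between cell types was not tested. Markers of cell type ran with the labels: all 9 measured pluripotency genes were called higher in R1 cells than in fibroblasts, and all 7 fibroblast genes were called lower. That comparison called 29.5% of all genes higher and 28.1% lower. In untreated OKMS6 cells 4, 5 and 7 of the 9 pluripotency genes were detected on all 3 arrays at 10, 24 and 48 h. Esrrb, a stem cell regulator, was detected at none of these times. In bulk RNA, fewer cells of a type and less RNA per cell cannot be told apart.

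**Figure D1:**
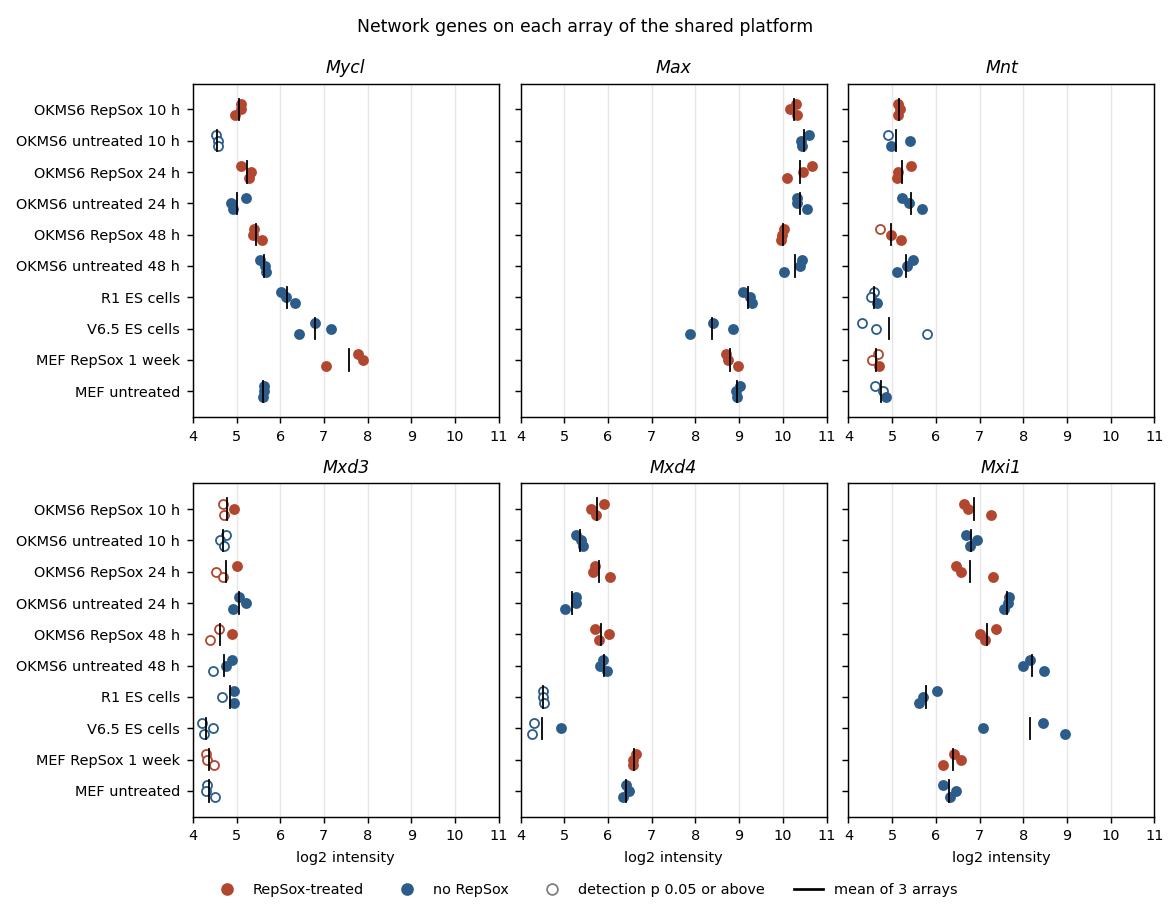
Log2 intensity of the 6 tested network genes on each array of the shared platform, with groups down the page. Points are arrays, open where the detection p was 0.05 or above, and black bars are means of 3 arrays. Mycl was highest in RepSox-treated fibroblasts (7.04 to 7.89) and lowest in untreated OKMS6 cells at 10 h (4.52 to 4.57), while Max was higher on every OKMS6 array than on any other array.

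Mycl, a transforming relative of Myc first found amplified in human lung cancer, was the network gene that rose in fibroblasts given RepSox. Its gene lies at chr4:122995588-123002490 in GRCm38.p6. The 3 arrays of treated fibroblasts read 7.78, 7.89 and 7.04, against 5.62, 5.63 and 5.60 on the 3 arrays of untreated fibroblasts. Every treated array lay above every untreated one. Deposited signals were 95.2, 106 and 84.1 in treated fibroblasts and 16.8, 17.2 and 16.4 in untreated fibroblasts. The log2 change was 1.95 ± 0.17 (SE, 95% interval 1.59 to 2.31), with an adjusted p of 4.8e-09 in limma. The call held under all 17 alternatives, with changes from 1.58 to 2.23.

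No other tested member passed the threshold in treated fibroblasts, so the network gave 1 call among 6 genes, where 15.1% of all genes were called (7.35% higher and 7.8% lower). Mxd4 averaged 6.6 ± 0.04 in treated and 6.41 ± 0.07 in untreated fibroblasts (SD, n = 3 each), a change of 0.18 with an adjusted p of 0.57, although its arrays did not overlap. Max changed by -0.16, Mnt by -0.11, Mxd3 by -0.01 and Mxi1 by 0.08, with adjusted p-values of 0.76 or above. The median change of the 6 was 0.03 and that of all genes -0.02.

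Adipocyte genes moved with Mycl in these cultures. All 5 tested genes of the adipocyte list were called higher in treated fibroblasts, among them Adipoq, the hormone adiponectin, at least 222-fold, with log2 intensities of 12.60 in treated cells and 4.37 in untreated cells. Such a bound sets a group with no detected array at the signal where detection begins. The summed intensity of the list's 6 genes was 9324 to 13961 in treated and 373 to 420 in untreated fibroblasts. Fabp4, a fatty acid carrier that defines mature fat cells, was detected in none of the 11 groups, so its absence here does not describe these cultures. Of the 4 tested smooth muscle genes 2 were called higher, with a summed intensity of 18710 to 22428 in treated and 15626 to 16560 in untreated fibroblasts. Cnn1 was likewise detected in none of the 11 groups. The 7 fibroblast genes were detected in both, at 6176 to 10476 in treated and 6445 to 6972 in untreated cells, and 2 of them were called higher and 2 lower. The part of any of these in the Mycl value was not tested.

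**Figure D2:**
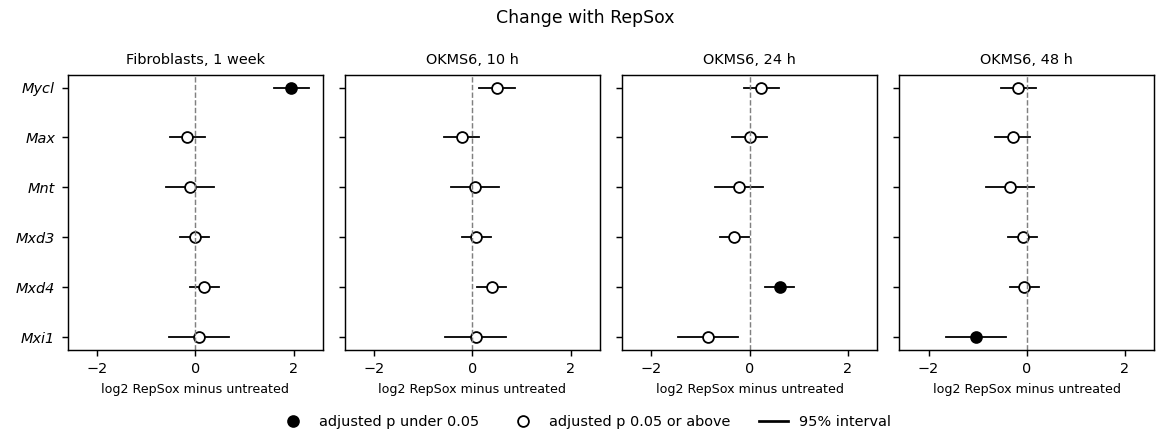
Log2 change with RepSox (treated minus untreated) of the 6 tested members in fibroblasts and in OKMS6 cells at 3 times. Points are limma estimates, filled at an adjusted p under 0.05, and lines are 95% intervals. Mycl was called in fibroblasts (1.95), Mxd4 in OKMS6 cells at 24 h (0.62) and Mxi1 at 48 h (-1.04).

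In OKMS6 cells Mycl stood near the detection limit. At 10 h the treated arrays read 5.10, 5.09 and 4.96, all detected, against 4.52, 4.57 and 4.57 on untreated arrays, none of them detected. The groups did not overlap, but the change of 0.50 ± 0.17 (SE) had an adjusted p of 0.14. Treated cells were at least 1.11-fold higher. At 24 h Mycl averaged 5.24 ± 0.12 in treated and 5.0 ± 0.18 in untreated cells (SD, n = 3 each), with overlapping arrays and an adjusted p of 0.54. At 48 h it averaged 5.45 ± 0.11 in treated and 5.62 ± 0.07 in untreated cells, again with overlap and an adjusted p of 0.67. Without V6.5 replicates 1 and 3 the 10 h change was called (0.52, adjusted p 0.017).

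Whether RepSox acted on Mycl differently in the 2 cell types was tested directly. The change in fibroblasts exceeded that in OKMS6 cells at 48 h by 2.13 ± 0.25 (SE), with an adjusted p of 5.1e-07, and the difference passed under all 23 alternatives. Mycl was the only called member of the 6 in this comparison, in which 16% of all genes were called (8.61% with the larger value in fibroblasts and 7.4% in OKMS6 cells). For Mxi1 the difference was 1.11 ± 0.42 with an adjusted p of 0.080. Leaving out V6.5 replicates 1 and 3 brought it past the threshold (adjusted p 0.0015). The treatments also differed in length, 1 week in fibroblasts and 48 h in OKMS6 cells, and these lengths cannot be told apart from the cell types.

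In untreated OKMS6 cells Mycl was not detected at 10 h and was detected on every array at 24 and 48 h. The arrays read 4.52, 4.57 and 4.57 at 10 h, 5.21, 4.88 and 4.91 at 24 h, and 5.55, 5.64 and 5.67 at 48 h. No array of 1 time overlapped with those of the next. Cells at 48 h were at least 1.66-fold higher than cells at 10 h (adjusted p 6.7e-05), and they exceeded cells at 24 h by 0.62 ± 0.17 (SE, adjusted p 0.017). In RepSox-treated cells, detected at all 3 times, 48 h exceeded 10 h by 0.40 ± 0.17, with an adjusted p of 0.11. The test of whether RepSox altered the step between 10 and 48 h, which uses the undetected arrays, gave an adjusted p of 0.10.

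**Figure D3:**
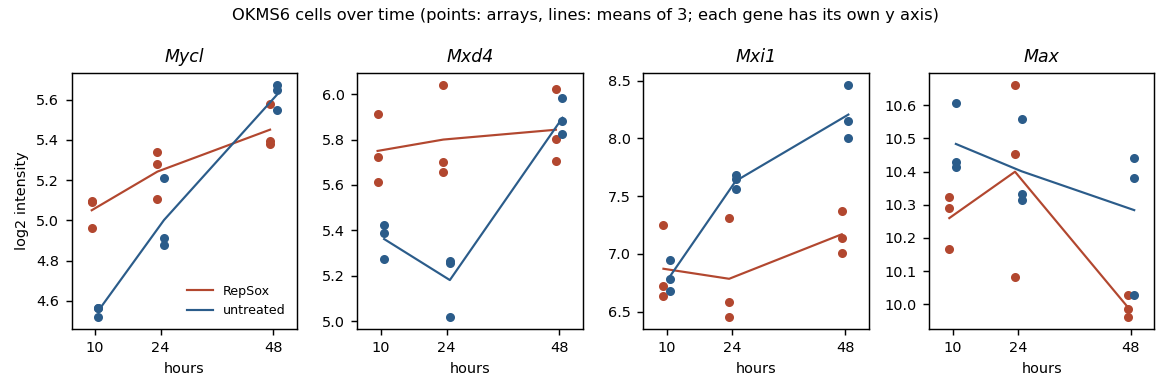
Log2 intensity in OKMS6 cells at 10, 24 and 48 h for Mycl, Mxd4, Mxi1 and Max, with RepSox-treated cells beside untreated cells and each gene on its own y axis. Points are arrays and lines join means of 3. Untreated Mxi1 reached 8.21 at 48 h, where treated Mxi1 stood at 7.17.

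Mxi1 is a Max partner that represses Myc targets and was first studied as a candidate human tumour suppressor. It was lower in OKMS6 cells given RepSox for 48 h than in untreated cells. In GRCm38.p6 it lies at chr19:53310128-53373293. The treated arrays read 7.37, 7.01 and 7.13, against 8.15, 8.0 and 8.46 on untreated arrays. The groups were apart by more than either group's range. The change was -1.04 ± 0.30 (SE), with an adjusted p of 0.017, and it was the 1 call among 6 members at this time, when 16% of all genes were called (6.94% higher and 9.03% lower). Without V6.5 replicates 1 and 3 the change was -1.04 as well, with an adjusted p of 7.2e-05. The call was lost without the arrays numbered 3 of both groups (-0.89, adjusted p 0.18), without replicate 3 of untreated cells (0.088), and without replicate 2 (0.073) or 3 (0.053) of treated cells. Under the series matrix, with the exchanged names, the change was -0.15 with an adjusted p of 1.0. Marker lists moved with it at 48 h, and their part in the Mxi1 value was not tested. The pluripotency list summed to 2266 to 2956 in treated and 3751 to 5077 in untreated cells, although of its 9 tested genes 3 were called higher and 1 lower, with a median change of 0.09. The smooth muscle list summed to 1289 to 1349 in treated and 437 to 515 in untreated cells, with 1 of 4 tested genes called higher and 1 lower and a median of 0.08. Of its genes Myh11, Cnn1 and Tagln were undetected in both groups and Mylk in treated cells. The endothelial list summed to 242 to 286 in treated and 522 to 620 in untreated cells, with Cdh5 undetected in both.

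At 24 h Mxi1 read 6.45, 6.58 and 7.31 on treated arrays and 7.68, 7.65 and 7.56 on untreated arrays. The groups did not overlap, and treated replicate 3 lay nearest to the untreated arrays. The change of -0.85 ± 0.30 (SE) did not pass (adjusted p 0.084), but it passed without treated replicate 3 (-1.11, adjusted p 0.027) and, with -0.85 and an adjusted p of 0.0011, on leaving out V6.5 replicates 1 and 3. At 10 h the means were 6.87 ± 0.33 in treated and 6.81 ± 0.14 in untreated cells (SD, n = 3 each), with overlapping arrays.

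In untreated OKMS6 cells Mxi1 rose over the collection times. It averaged 6.81 at 10 h, 7.63 at 24 h and 8.21 at 48 h without RepSox, a difference of 1.40 ± 0.30 between 48 and 10 h (adjusted p 0.0012). With RepSox the same difference was 0.30 ± 0.30 (adjusted p 0.58). The change in the RepSox effect between 10 and 48 h was -1.10 ± 0.42 and did not pass (adjusted p 0.12).

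Mxd4, which pairs with Max and is known from cells leaving the cell cycle, was higher with RepSox than without in OKMS6 cells at 24 h. It lies at chr5:34176580-34187710. Treated arrays read 5.70, 5.66 and 6.04, against 5.26, 5.27 and 5.02 on untreated arrays, with no overlap. The change was 0.62 ± 0.14 (SE, adjusted p 0.0053), the 1 call among 6 members where 9.18% of all genes were called (5.68% higher and 3.5% lower). It did not pass with median scaling (0.49, adjusted p 0.071), which puts the median of all genes at this time at -0.18, or with the series matrix (0.63, adjusted p 0.061). Mean array signals at 24 h were 147 to 201 in treated and 217 to 238 in untreated cells, and the part of this in the change was not tested. The same holds for the marker lists that moved with it. The smooth muscle list summed to 1744 to 2502 in treated and 720 to 802 in untreated cells. Of its 4 tested genes 1 was called higher and 1 lower, with a median change of 0.06. The pluripotency list summed to 1952 to 2606 in treated and 3148 to 3607 in untreated cells. Of its 9 tested genes, however, 3 were called higher and 1 lower, with a median change of 0.05. The endothelial list summed to 283 to 321 in treated and 484 to 575 in untreated cells, and the epithelial list to 268 to 348 in treated and 128 to 155 in untreated cells. Myh11, Cnn1, Tagln, Esrrb, Cdh5, Kdr and Krt18 were undetected in both groups.

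At 10 h Mxd4 read 5.91, 5.62 and 5.72 in treated cells and 5.27, 5.39 and 5.43 in untreated cells. The arrays again did not overlap, with a change of 0.39 ± 0.14 and an adjusted p of 0.17. At 48 h it averaged 5.84 ± 0.16 in treated and 5.90 ± 0.08 in untreated cells (SD, n = 3 each), with overlap. Untreated cells had meanwhile gained Mxd4, by 0.71 ± 0.14 between 24 and 48 h (adjusted p 0.0011), and treated cells changed by 0.09 between 10 and 48 h (adjusted p 0.76). The fall in the RepSox effect between 24 and 48 h, -0.67 ± 0.20, had an adjusted p of 0.046, where 6.66% of all genes were called. The moderated F test over all 3 times did not call Mxd4 (adjusted p 0.087). This fall was not recomputed without the 48 h arrays whose names are exchanged.

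At 10 h no member of 6 was called in limma, where 3.88% of all genes were called (2.53% higher and 1.35% lower) and 2 members, Mycl and Mxd4, had an unadjusted p under 0.05. Without V6.5 replicates 1 and 3 both were called at 10 h. The test of whether the RepSox effect differed among the 3 times called 0 of 6 members (8.8% of all genes), with 3 members at an unadjusted p under 0.05. That test called 3 members, Mycl, Mxd4 and Mxi1, without V6.5 replicates 1 and 3. Without both 48 h arrays numbered 3 it called 0, with 0 at an unadjusted p under 0.05 and adjusted p-values of 0.42 for Mycl, 0.36 for Mxd4 and 0.46 for Mxi1. Among untreated OKMS6 cells alone, 3 of 6 members differed between times, namely Mycl, Mxd4 and Mxi1, where 20% of all genes were called. Without both 48 h arrays numbered 3 the count was 3 as well (1422 of all genes). It was 1 with the series matrix (1185) and 2 with the series matrix without both arrays (1328).

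Max, the shared partner of the other members, was detected on all 30 arrays and did not pass the threshold with RepSox in any of the 4 comparisons. It lies at chr12:76937269-76962323. At 48 h the arrays read 10.03, 9.98 and 9.96 in treated OKMS6 cells and 10.44, 10.38 and 10.03 in untreated cells, a change of -0.29 with an adjusted p of 0.34. At 24 h the change was -0.001 (95% interval -0.36 to 0.36), and at 10 h it was -0.22 (-0.58 to 0.14), with arrays that did not overlap. Max has a second, dimmer probe, which gave 0.21 at 48 h with an adjusted p of 0.65.

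Mnt, the broadly expressed repressor of the network, lies at chr11:74830806-74845725 and was detected on 19 of 30 arrays. It averaged 4.96 ± 0.24 in treated and 5.31 ± 0.18 in untreated OKMS6 cells at 48 h (SD, n = 3 each), a change of -0.34 with an adjusted p of 0.44. Its second probe gave -0.33 ± 0.11 with an adjusted p of 0.053. At 24 h the change was -0.21, at 10 h 0.06, and neither passed.

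Mxd3, a Max partner known from proliferating progenitors, lies at chr13:55325170-55329900 and was detected on 10 of 30 arrays. Its largest change with RepSox was -0.31 ± 0.14 at 24 h, with treated arrays at 5.02, 4.54 and 4.69 and untreated arrays at 5.05, 5.21 and 4.92. The groups overlapped and the adjusted p was 0.22. Mycn, at chr12:12936093-12941836, and Mxd1, at chr6:86647044-86669234, were detected on none of the 30 arrays, stem cells included, so no level or change is given for them.

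In untreated OKMS6 cells, averaged over the 3 times, all 6 tested members were called against fibroblasts, where 59.2% of all genes were called (32% higher and 27.2% lower). The 4 that were higher were Max by 1.43 ± 0.14, Mxi1 by 1.24 ± 0.24, Mnt by 0.53 ± 0.19 and Mxd3 by 0.45 ± 0.12 (log2 ± SE), the last with at least a 1.01-fold difference because it was undetected in fibroblasts. Mxd4 was lower by -0.94 ± 0.12 and Mycl by -0.56 ± 0.14, with adjusted p-values of 1.6e-07 and 0.0015. Median scaling, which puts the median change of all genes at 0.42 here, ended the Mycl call (-0.20, adjusted p 0.57), and the Mnt call was lost without replicate 1 of the fibroblasts (0.46, adjusted p 0.098). The 3 comparisons of cell types share arrays with one another.

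For Max the arrays of untreated OKMS6 cells ranged from 10.03 to 10.61, against 9.01, 8.92 and 8.95 in fibroblasts. The 9 OKMS6 arrays all lay above the 3 fibroblast arrays. The dimmer Max probe gave -0.10 ± 0.16 (SE, adjusted p 0.64) for the same comparison, so the probes of Max disagreed, and the tables used here do not place either probe in the transcript. Both Mnt probes gave a higher level in OKMS6 cells, 0.53 and 0.67.

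**Figure D4:**
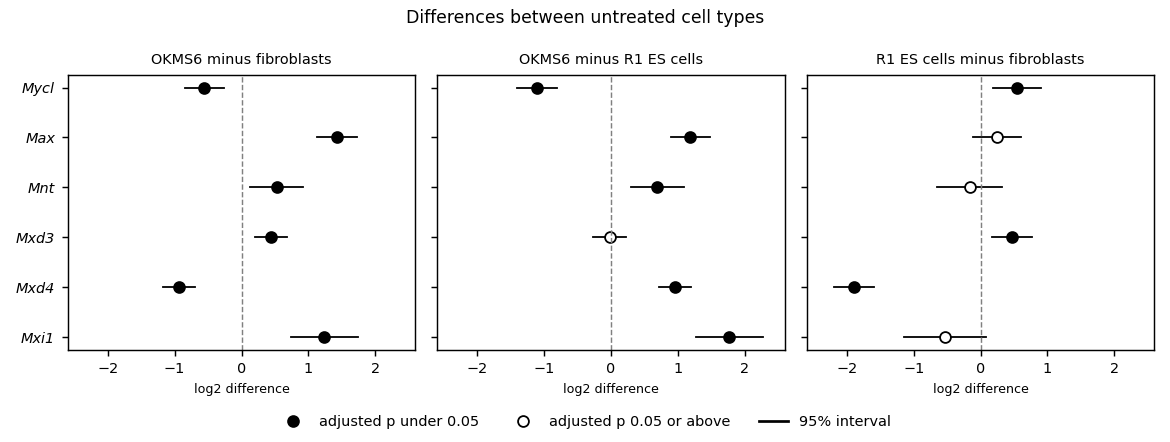
Log2 differences between untreated cell types for the 6 tested members. Points are limma estimates, filled at an adjusted p under 0.05, and lines are 95% intervals. Max was higher in OKMS6 cells than in fibroblasts (1.43) and than in R1 cells (1.18), and Mxd4 was lower in R1 cells than in fibroblasts (-1.89).

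Against R1 stem cells, untreated OKMS6 cells differed in 5 of 6 members, where 50.5% of all genes were called (25.9% higher and 24.6% lower). Mxi1 was higher by 1.77 ± 0.24, Max by 1.18 ± 0.14 and Mnt by 0.69 ± 0.19 (SE), and Mycl was lower by -1.11 ± 0.14. Mxd4, undetected in R1 cells, was at least 1.73-fold higher in OKMS6 cells (adjusted p 1.7e-07). The dimmer Max probe gave 0.35 ± 0.16 with an adjusted p of 0.074, so the Max call rests on the brighter probe. Mxd3 differed by -0.02 with a 95% interval of -0.27 to 0.22.

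R1 stem cells differed from fibroblasts in 3 of 6 members, where 57.6% of all genes were called (29.5% higher and 28.1% lower). Mxd4 read 4.51, 4.52 and 4.53 in R1 cells, undetected on each array, against 6.42, 6.49 and 6.34 in fibroblasts, and was at least 3.3-fold lower in R1 cells (adjusted p 2.9e-11). Mycl read 6.03, 6.13 and 6.34 in R1 cells and 5.62, 5.63 and 5.60 in fibroblasts, with no overlap. The difference of 0.55 ± 0.17 had an adjusted p of 0.0090, and of 0.051 without R1 replicate 3. Mxd3 was higher by 0.47 ± 0.14, at least 1.03-fold. Mxi1 differed by -0.53 with an adjusted p of 0.14, and by 0.23 with median scaling, which puts the median of all genes at 0.52 here. Without V6.5 replicates 1 and 3 Mxi1 was called lower (-0.54, adjusted p 0.011).

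In the order of levels, Mycl came highest in treated fibroblasts (7.57), followed by V6.5 cells (6.79), R1 cells (6.17), untreated OKMS6 cells at 48 h (5.62) and untreated fibroblasts (5.62). The arrays of treated fibroblasts overlapped with those of V6.5 cells, and those of OKMS6 cells at 48 h with those of untreated fibroblasts. Mxd4 had its highest levels in treated (6.6) and untreated fibroblasts (6.41) and its lowest in R1 (4.52) and V6.5 cells (4.5), the last pair overlapping. Mxi1 was highest in untreated OKMS6 cells at 48 h (8.21) and lowest in R1 cells (5.78). V6.5 arrays ran from 7.07 to 8.95 for Mxi1, and the highest and lowest of them were 1 dim array and the bright one.

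The iPS line made with RepSox could be compared only by rank. Mycl stood at percentiles 81.3, 80.5 and 79.1 among the probes of the 3 iPS arrays, with log2 intensities of 8.45, 8.35 and 8.16. The same probe stood at 68.9 to 71.6 on R1 arrays, at 77.1 to 83.5 on treated fibroblast arrays and at 64.9 to 65.2 on untreated fibroblast arrays. Mxi1 stood at 85.9 to 86.8 on iPS arrays, against 65.0 to 68.8 on R1 arrays, 70.0 to 72.5 on fibroblast arrays, 77.4 to 90.5 on V6.5 arrays and 84.3 to 87.5 on untreated OKMS6 arrays at 48 h. A second Mxi1 probe on the iPS platform stood at 51.2 to 60.0. Mxd3 was detected on 2 of the 3 iPS arrays, and Mycn and Mxd1 on none. All 7 fibroblast marker genes were detected on the iPS arrays, at a summed intensity of 1840 to 2225, and their part in these ranks was not tested.

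**Figure D5:**
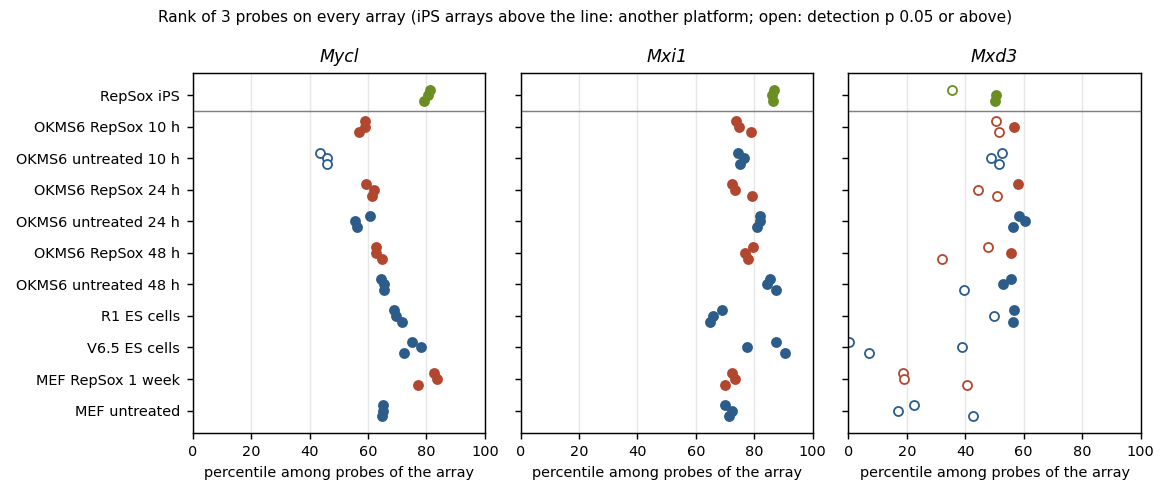
Percentile of the Mycl, Mxi1 and Mxd3 probes among all probes of each array, with the iPS arrays above the line because they ran on another platform. Points are arrays, open where the detection p was 0.05 or above. Mycl stood at 79.1 to 81.3 on iPS arrays and at 64.9 to 65.2 on untreated fibroblast arrays.

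Across the 9 group means without V6.5, the genes most like Mycl were Prxl2a (Pearson's r 0.988), Il1rap (0.968) and Tmem108 (0.966). Those most like Max were Ptprv (0.99), Nccrp1 and Mal (0.988 each). For Mxd4 they were Snx14 (0.985), Mbnl2 (0.98) and Dctn4 (0.975). For Mxi1 they were Ankrd33b (0.977), Clrn3 and Rapgefl1 (0.966 each), and for Mnt Pi4ka (0.974), Septin9 (0.973) and Bnip3l (0.968). Among the members themselves Max and Mnt ran together (0.903), while Mycl ran against Max (-0.815) and Mxd3 against Mxd4 (-0.811). Mxd3 was undetected in both fibroblast groups and Mxd4 in R1 cells, so the last value rests partly on undetected levels. The group means of Mxd3 had an SD of only 0.218. All values for Max are those of its brighter probe. These values describe 9 means that share a normalization, 6 of them from 1 cell line.

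Myc, the founding member left out of the set, was detected on all 18 OKMS6 arrays by its brighter probe. By that probe Myc was at least 20.6-fold higher in untreated OKMS6 cells than in fibroblasts. A second Myc probe was detected on 0 of 30 arrays. At 48 h the brighter probe averaged 8.01 ± 0.18 in treated and 9.10 ± 0.25 in untreated OKMS6 cells (SD, n = 3 each). The change was -1.09, with an adjusted p of 3.3e-04 in limma. With the series matrix, and its exchanged array names, 0 of all genes were called at 48 h.

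The sister arm of the network, built on Mlx in place of Max, responds to glucose and is read out by Txnip and Arrdc4, which limit glucose uptake. In OKMS6 cells at 48 h these 2 of the 5 tested genes of the arm were lower with RepSox than without. In limma Txnip differed by -1.24 ± 0.16 (SE, adjusted p 2.1e-06) and Arrdc4 by -0.85 ± 0.19 (adjusted p 0.0026). Of all genes 16% were called (6.94% higher and 9.03% lower). The arm's summed intensity was 764 to 907 in treated and 679 to 800 in untreated cells at 24 h. At 48 h it was 1251 to 1276 in treated and 2166 to 2752 in untreated cells. Arrdc4 was not called without both arrays numbered 3 (-0.71, adjusted p 0.054) or with median scaling (-0.94, 0.22). With the series matrix neither Txnip (-0.38) nor Arrdc4 (-0.11) was called at 48 h. In treated fibroblasts Txnip fell by -0.76 ± 0.16 (adjusted p 9.3e-04), the only one of the 5 called, where 15.1% of all genes were called. It was not called with the series matrix (-0.74, adjusted p 0.099). At 10 and 24 h limma called 0 of the 5, with 0 at an unadjusted p under 0.05, and 3.88% and 9.18% of all genes. Neither Mlx nor Mga, which joins the Max and Mlx arms, was called with RepSox.

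Myc-Max target genes encode enzymes of polyamine, nucleotide and ribosome production. At 24 h 4 of the 17 tested fell with RepSox and none rose: Shmt2, a mitochondrial serine enzyme, by -1.09 ± 0.20, Odc1, which starts polyamine synthesis, by -0.76 ± 0.16, Srm, spermidine synthase, by -0.91 ± 0.27, and Ldha, lactate dehydrogenase, by -0.52 ± 0.16. The list's median change was -0.43 and that of all genes 0.003. Srm and Ldha were not called without any 1 of treated replicates 2 and 3 or untreated replicates 1, 2 and 3 (adjusted p 0.056 to 0.16), nor with median scaling (0.18 and 0.10). The comparison called 3.5% of all genes lower. Leaving out V6.5 replicates 1 and 3 gave 7 lower and 1 higher. At 48 h only Shmt2 was lower (-0.78 ± 0.20) and only Ncl, the nucleolar protein nucleolin, higher (0.71 ± 0.19), and without both arrays numbered 3 Ncl was not called (adjusted p 0.080), nor with median scaling (0.11). Of all genes 16% were called at 48 h. At 10 h limma called 0 of 17 and 3.88% of all genes, with 1 of the 17 at an unadjusted p under 0.05, Srm at -0.86 with an adjusted p of 0.082. In treated fibroblasts, where 15.1% of all genes were called, Nme1 (-0.47) and Shmt2 (-0.64) fell, with adjusted p-values of 0.020 and 0.025. Median scaling ended both calls (0.11 and 0.58). Nme1 was also lost without treated replicate 3 (0.20) or untreated replicate 1 (0.14), and Shmt2 without treated replicate 2 or 3 (0.052 and 0.13) or untreated replicate 2 or 3 (0.090 and 0.074).

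In untreated OKMS6 cells 14 of 17 target genes were called higher than in fibroblasts and 1 lower, where 32% of all genes were called higher and 27.2% lower, with a median of 1.07 against 0.05 for all genes. Fbl, the nucleolar methyltransferase fibrillarin, was higher by 2.16 ± 0.13, Nop58 by 1.68 ± 0.13 and Shmt2 by 1.88 ± 0.16 (SE), and the cyclin Ccnd2 was lower by -3.83 ± 0.19. In R1 cells 8 of 17 were called higher than in fibroblasts and 3 lower, in a comparison that called 57.6% of all genes.

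Cell cycle genes were called higher with RepSox than without at 48 h in 4 of 13 cases and lower in 0. Of all genes 6.94% were called higher and 9.03% lower. Birc5, the mitotic survivin, was higher by 1.07 ± 0.18, and the replicative helicase subunits Mcm5 by 0.51 ± 0.16, Mcm2 by 0.50 ± 0.16 and Mcm7 by 0.94 ± 0.32 (SE). The list's summed intensity at 48 h was 13220 to 14471 in treated and 8557 to 9254 in untreated cells, without overlap. At 24 h it was 14064 to 14098 in treated and 15260 to 17065 in untreated cells. Between these times the untreated sum fell, while the treated sums overlapped. Without both arrays numbered 3 the count called higher at 48 h was 1 (Birc5). With the replicate number as a block it was 3 (Mcm7 adjusted p 0.059), and on leaving out V6.5 replicates 1 and 3 it was 10. Median scaling ended the calls of Birc5 (1.06, adjusted p 0.15), Mcm2 (0.38, 0.78) and Mcm5 (0.55, 0.46). Each Mcm call was also lost without treated replicate 1 or 2 or untreated replicate 3 (adjusted p 0.067 to 0.24), and those of Mcm2 and Mcm7 without treated replicate 3 or untreated replicate 1 (0.069 to 0.15). Limma called 0 of 13 at 10 h and 0 at 24 h, with 0 and 1 at an unadjusted p under 0.05. Of all genes 3.88% and 9.18% were called at these times. In treated fibroblasts, where 15.1% of all genes were called, the mitotic kinase Plk1 was the only call, lower by -0.62 ± 0.20. It was not called without treated replicate 3 (adjusted p 0.34), untreated replicate 1 (0.098) or 2 (0.11), or with median scaling (0.54). All 13 were called higher in untreated OKMS6 cells than in fibroblasts, where 32% of all genes were called higher and 27.2% lower.

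Of the co-factors of the network, which include the Sin3 and histone deacetylase corepressors and the coactivator complexes, 1 of 11 was called with RepSox at 24 h, when 9.18% of all genes were called, and 1 at 48 h, when 16% were. In both cases it was Hdac2, a histone deacetylase, higher by 0.65 ± 0.14 at 24 h and by 0.52 ± 0.14 at 48 h. Median scaling ended both calls, with 0.25 at 24 h (adjusted p 0.73) and 0.63 at 48 h (0.32), and the 48 h call was lost without treated replicate 3 (0.064) or untreated replicate 1 (0.063). Between cell types 7 of 11 were called higher in untreated OKMS6 cells than in fibroblasts, led by the helicases Ruvbl1 (2.20 ± 0.13) and Ruvbl2 (2.92 ± 0.22), and none lower. That comparison called 32% of all genes higher and 27.2% lower. Among the 8 genes of Myc protein turnover, the kinase Aurka (1.22 ± 0.12) and the ubiquitin ligase subunit Skp2 (0.54 ± 0.16) rose with RepSox at 48 h, and Skp2 was not called without both arrays numbered 3 (adjusted p 0.14), treated replicate 2 (0.097), untreated replicate 3 (0.096) or with median scaling (0.49). The ligase subunit Fbxw7, which marks Myc for destruction, was the only one called in treated fibroblasts, where 15.1% of all genes were called. Fbxw7 was higher by 0.82 ± 0.24 and not called without treated replicate 1 (0.076) or 2 (0.071) or untreated replicate 3 (0.074).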

How the data were processed

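Total RNA was measured on 33 Illumina bead arrays, labelled after biotin cRNA synthesis per the labels' protocols. The authors deposited scanner tables of background-subtracted intensity with a detection p-value per probe, for 25697 probes on the shared platform and 24613 on that of the iPS cells, and a series matrix of processed intensity. Per the submitters' processing notes the authors used BeadStudio, of a version those notes leave out. Arrays were normalized with neqc in limma 3.58.1 (R 4.3.3; offset 16, background from the detection p-values), giving log2 intensity from the deposited values. Probes detected (p under 0.05) on at least 3 of 30 arrays were kept (15635), and each gene was represented by its probe of highest mean (10614 genes). Group means over 10 groups were fitted with lmFit and eBayes, two-sided, with Benjamini-Hochberg adjustment over all genes. The same fit was checked on simulated data. Same-numbered arrays deviated together at 48 h (correlations of 0.225, 0.101 and 0.338) and in fibroblasts (0.0563, 0.117 and 0.21), in the data and not by the labels. The block on replicate number was shared by all 10 groups, so it does not test a pairing at 48 h alone or in fibroblasts alone. The number of arrays limits the precision. Members are named throughout, with up to 4 genes per other list by adjusted p in a comparison. The V6.5 group entered the fit for its spread. The members and lists were chosen with earlier results of these data known. Gene positions and promoters are RefSeq's. Probe symbols came from the platform annotation: 23978 shared-platform probes had 1 symbol, 1719 were not listed and stayed unnamed.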

Additional observations from a re-analysis of the deposited data

Results flagged for a closer look

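The response of Mycl to RepSox differed between fibroblasts and OKMS6 cells at 48 h by a direct test of the difference (2.13 on the log2 scale, limma, adjusted p 5.1e-07), with all 3 treated fibroblast arrays above all 3 untreated ones. For Myc the same test gave 1.36 (adjusted p 0.0012). Myc was detected on 1 of 3 treated and 0 of 3 untreated fibroblast arrays, so there is no measured change in fibroblasts behind this value, which rests on the change of -1.09 in OKMS6 cells. Treatment lasted 1 week in fibroblasts and 48 h in OKMS6 cells, and these lengths cannot be told apart from the cell types.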

How the results depend on the processing

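The alternatives were chosen with earlier results of these data known. Among members and Myc, 1308 of the recomputed values kept their direction and their side of the threshold, 50 gained a call, 17 lost one and 39 changed sign, the last all among values not called. A slide block was not run, because the files used here name no slide. Signal over background limits Mxd3, detected on 10 of 30 arrays, Mnt, detected on 19, and Mycl at 10 h in untreated OKMS6 cells, detected on 0 of 3. Same-numbered arrays correlated from -0.317 to 0.338 in their deviations from the group means. Every pair was positive at 48 h (0.101 to 0.338) and in fibroblasts (0.0563 to 0.21). With the replicate block the members called were 1 in fibroblasts, 0 at 10 h, 1 at 24 h and 1 at 48 h, as without it, and 3, 6 and 5 in the comparisons of cell types. Beside Mcm7 it changed no call named at 48 h. The block was shared by all 10 groups, so a pairing of the 48 h arrays alone or of the fibroblast arrays alone was not tested.

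Array weights called 2 members in fibroblasts, 3 at 10 h, 4 at 24 h, 3 at 48 h, 5 for R1 cells against fibroblasts, 2 for fibroblasts against OKMS6 cells, 6 for the RepSox effect between times and 5 for untreated OKMS6 cells between times. Over all genes they called 4205 in fibroblasts, 2782 at 10 h, 4904 at 24 h, 4608 at 48 h, 4845, 5262 and 6539 in the last 3 comparisons, against 1608, 412, 974, 1695, 1699, 934 and 2125 as reported. Without V6.5 replicates 1 and 3 the members called were 2 at 10 h, 2 at 24 h, 2 for fibroblasts against OKMS6 cells and 3 for the RepSox effect between times, and the genes called were 3005, 1335, 2550, 3446, 3522, 2787 and 4765. With only the groups compared they were 2, 2, 2 and 3 members, and 1299 genes at 10 h, 1730 at 24 h, 3922 at 48 h, then 3413, 2862 and 5385.

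Median scaling called 905 genes in fibroblasts, 256 at 10 h and 495 for the RepSox effect between times, and 2 members for fibroblasts against OKMS6 cells. It gave a share of higher among called genes of 26.6% at 24 h (61.9% as reported), 29.5% at 48 h (43.5%), 61.3% in fibroblasts (48.5%), 72.7% for R1 cells (51.2%) and 76.4% for OKMS6 cells (54.1%) against fibroblasts, and 69.2% for fibroblasts against OKMS6 cells (53.8%). The series matrix called 110 genes at 10 h, 484 at 24 h and 0 at 48 h, where limma gave 132 genes and 0 members an unadjusted p under 0.05. It called 529, 18 and 1185 genes in the last 3 comparisons, 0 members at 24 h (2 at an unadjusted p under 0.05), 0 at 48 h and 1 for untreated OKMS6 cells between times. The series matrix without both 48 h arrays numbered 3 called 1 member at 10 h, 0 at 24 h (3 unadjusted) and 0 at 48 h (1 unadjusted), with 928 genes at 48 h, then 1106, 412 and 1328. Without both arrays, scanner values called 0 members at 48 h (1 unadjusted), 1016 genes at 48 h and 519 for the RepSox effect between times. The causes were not tested.

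Signs turned for Mxi1 at 10 h (-0.059 with array weights), Max at 24 h (0.094 with array weights, 0.12 with each probe tested, 0.001 with only the groups compared), and Mxd4 at 48 h (0.059 with the series matrix, 0.008 with it and 0.01 with scanner values without both arrays numbered 3). For R1 cells against fibroblasts they turned for Max (-0.45 with each probe tested), Mxi1 (0.23 with median scaling) and Myc (0.029 without background correction and 0.027 with both forms of the series matrix). For OKMS6 against R1 cells Mxd3 gave 0.065 with array weights, 0.021 with the series matrix without both arrays numbered 3 and 0.018 with scanner values without them. For fibroblasts against OKMS6 cells Max gave -0.29 with each probe tested and Mxd3 -0.009 with the series matrix. Mcm2 at 48 h gave -0.009 with the series matrix.

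Leaving out 1 replicate at a time gave 229 to 296 genes at 10 h, 629 to 1029 genes and 1 to 2 members at 24 h, and 0 to 1 members at 48 h. The ranges that crossed 0 were, in fibroblasts, -0.067 to 0.05 for Mxd3 and -0.019 to 0.19 for Mxi1. At 10 h they were -0.036 to 0.21 for Mnt, -0.004 to 0.13 for Mxd3 and -0.13 to 0.18 for Mxi1, at 24 h -0.13 to 0.16 for Max, and at 48 h -0.21 to 0.038 for Mxd3 and -0.14 to 0.017 for Mxd4. They were -0.11 to 0.072 for Myc in R1 cells against fibroblasts, -0.11 to 0.025 for Mxd3 in OKMS6 against R1 cells and -0.051 to 0.20 for Mxd3 in fibroblasts against OKMS6 cells.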
